A study of Mus musculus with 6 samples.

Results

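The Cyp2a subfamily of cytochrome P450 genes was followed in mouse liver after sulfasalazine, through its 5 annotated members Cyp2a4, Cyp2a5, Cyp2a12, Cyp2a22 and the pseudogene Cyp2a21-ps. Members were taken by name from the rows of the expression table that carry an Ensembl transcript, which gave 5 of 42612 loci. Liver RNA came from male ICR mice, an outbred stock, with a labelled age of 8 weeks. Each treatment group of the study had 10 mice and a cage also held 10, but the labels do not say whether cages were mixed. The 3 sulfasalazine libraries came from mice gavaged for 4 weeks with 1000 mg/kg of the drug, an anti-inflammatory prodrug that is cleaved by bacteria of the intestine. Per the series' design text 1000 mg/kg is the dose that was sequenced. The 3 control libraries came from mice gavaged with the same volume of 0.1% DMSO, in which the drug was also dissolved. Levels are in FPKM, a fragment count corrected for transcript length and library size, which lets genes be set side by side per length. The labels do not say that each library is 1 animal, and p-values measure only the spread between these samples, which may be technical.

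CYP2A enzymes are heme proteins of the endoplasmic reticulum that use oxygen and electrons from P450 reductase to hydroxylate small molecules. In mice Cyp2a5 encodes the main coumarin hydroxylase, which also oxidises nicotine and bilirubin and is the counterpart of human CYP2A6. It is known as an inducible gene of pericentral hepatocytes that responds to phenobarbital, to NRF2 activators and to several kinds of liver injury. Cyp2a4 encodes a steroid hydroxylase known to be higher in female than in male mouse liver, and Cyp2a12 encodes an enzyme that hydroxylates testosterone and bile acids. Coumarin hydroxylation is thus the textbook activity of Cyp2a5 and not of every member.

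All 5 members lie on chromosome 7, spread over 730 kb from 26307169 to 27037375 in GRCm38. Cyp2a4 lies on the plus strand from 26307169 to 26315088, Cyp2a5 on the plus strand from 26835305 to 26843548, and Cyp2a12 on the plus strand from 27029081 to 27037375. Cyp2a22 lies on the minus strand from 26931631 to 26939384. The annotated span of the pseudogene, from 26917381 to 26952346 on the plus strand, encloses Cyp2a22, with 0 exonic bases in common. By sequence the coding members form 2 pairs. The coding sequences of Cyp2a4 and Cyp2a5 were 98.4% identical, with 23 differences over 1482 bases. Those of Cyp2a12 and Cyp2a22 were 97.0% identical, with 45 differences over 1476 bases, while identity between the pairs lay between 78.0% and 79.5%. The transcript of Cyp2a21-ps was closest to Cyp2a5, at 90.6% of 1456 aligned bases.

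The 250 bases before the RefSeq transcript starts show the same pairs, and are printed so that the members whose values are compared can be read side by side. They come from RefSeq's table for GRCm38.p6, which held 4 of the 5 members. Capitals mark aligned bases that differ within the pair. Lower case marks identical bases and also bases with no counterpart in the partner's window. Each sequence runs 5′ to 3′ on the strand of its gene. The windows are chr7:26835089-26835338 for Cyp2a5, chr7:26306942-26307191 for Cyp2a4, chr7:27028840-27029089 for Cyp2a12 and, on the minus strand, chr7:26939387-26939636 for Cyp2a22. The RefSeq starts differ from the GENCODE gene coordinates given above. For Cyp2a5, Cyp2a4 and Cyp2a12 the window therefore runs past the GENCODE start of the gene. Distances before the start refer to RefSeq.
Cyp2a5: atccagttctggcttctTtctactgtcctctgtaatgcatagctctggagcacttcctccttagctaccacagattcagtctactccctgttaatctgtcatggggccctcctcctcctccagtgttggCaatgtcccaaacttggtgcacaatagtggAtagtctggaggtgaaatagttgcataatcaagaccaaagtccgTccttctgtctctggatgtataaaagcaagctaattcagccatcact
Cyp2a4: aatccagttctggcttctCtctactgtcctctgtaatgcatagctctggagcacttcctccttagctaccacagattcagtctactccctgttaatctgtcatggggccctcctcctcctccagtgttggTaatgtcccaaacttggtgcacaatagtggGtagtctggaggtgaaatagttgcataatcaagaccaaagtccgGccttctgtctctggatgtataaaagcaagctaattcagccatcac
Cyp2a12: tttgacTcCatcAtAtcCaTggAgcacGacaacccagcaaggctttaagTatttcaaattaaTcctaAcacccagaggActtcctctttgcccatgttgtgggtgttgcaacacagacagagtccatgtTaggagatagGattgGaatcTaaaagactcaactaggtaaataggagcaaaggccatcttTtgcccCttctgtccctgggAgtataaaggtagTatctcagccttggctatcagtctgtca
Cyp2a22: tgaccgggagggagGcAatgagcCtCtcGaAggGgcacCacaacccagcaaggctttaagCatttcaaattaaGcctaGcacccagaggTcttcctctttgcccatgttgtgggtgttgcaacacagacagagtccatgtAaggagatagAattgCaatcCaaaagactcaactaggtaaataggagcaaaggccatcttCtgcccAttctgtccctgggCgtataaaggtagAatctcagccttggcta

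The Cyp2a5 and Cyp2a4 windows differed at 4 of 249 aligned bases, T18C, C130T, A160G and T204G, with the Cyp2a5 base first and positions counted from 1 at the 5′ end of the Cyp2a5 window. The Cyp2a12 and Cyp2a22 windows differed at 20 of 237 aligned bases. Their alignment had 26 further columns with a gap, against 2 for Cyp2a5 and Cyp2a4. Of 10 short motifs searched on both strands, TATAAA was present in all 4 windows and in 12.4% of 32817 RefSeq windows of this length. The other matches were found in Cyp2a5 and Cyp2a4 alone. TTGCNNAA, a pattern of C/EBP and PAR bZIP factors, matched as TTGCATAA at 71 to 64 bases before the start of Cyp2a5 and 70 to 63 before that of Cyp2a4, and is present in 9.57% of all windows. CAAAGTCC, as in HNF4 sites, matched at 56 to 49 and at 55 to 48 bases before the start, and is present in 1.2% of all windows. None of the 4 differing bases falls in these matches, which do not overlap each other. TTANGTAA (D-box, in 2.06% of windows), TGACNNNGC (antioxidant response element core, 10.2%), GCGTG (xenobiotic response element core, 28.1%), AGGTCA (nuclear receptor core, 14%), the direct repeat DR4 of that core with a spacer of 4 bases (0.0152%), the NF-I palindrome of TTGGC and GCCAA set 5 bases apart (0.0366%) and CACGTG (E-box, 6.02%) had no match in the 4 windows. That says only that these letters are not in these 250 bases.

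Near-identical transcripts matter for how reads could be divided among members. Of all stretches of 100 bases in the main Cyp2a5 transcript, 85.6% occur in no other annotated gene, 9.6% also occur in Cyp2a4 and 7.2% in Cyp2a21-ps. For stretches of 50 bases, 59.2% are found in Cyp2a5 alone. In Cyp2a4 the share found in no other gene was 88.8% at 100 bases and 61.2% at 50, in Cyp2a12 it was 93.2% and 72.5%, in Cyp2a22 93.6% and 74.3%, and in Cyp2a21-ps 89.9% and 73.0%. Stretches of Cyp2a12 were shared with Cyp2a22 and with no other gene. The read length and the treatment of reads with several matches are not given in the sources used here, so each member's FPKM is uncertain within its pair. Because of shared stretches, the FPKM of Cyp2a21-ps is also uncertain against Cyp2a5 and Cyp2a4.

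Cyp2a5 had 516, 374 and 302 FPKM in the sulfasalazine libraries, against 10.9, 44.0 and 21.4 FPKM in the control libraries. Its level in the lowest sulfasalazine library stood well above that of the highest control. It averaged 397 ± 109 FPKM in sulfasalazine libraries and 25.4 ± 17.0 FPKM in control libraries (SD, n = 3 each), a ratio of means of 15.6. The difference on the log2(FPKM + 1) scale, 4.09 (SE 0.50), is called the log2 fold change here, and by limma over 11969 tested loci it did not pass the threshold of 0.05 (limma, adjusted p = 0.107). The fold change ranked 3 from the highest among 9928 tested loci with an Ensembl transcript, and its unadjusted p ranked 13. By mean level Cyp2a5 ranked 72 of these loci in sulfasalazine livers and 784 in control livers. Under 17 alternative settings limma gave it an adjusted p of 0.0503 to 0.543, and its log2 fold change between 3.61 and 4.57.

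Among the 5 members 0 passed the threshold, where 0.0167% of all tested loci passed upward and 0% downward; 2 members, Cyp2a5 and Cyp2a21-ps, had an unadjusted p under 0.05, as did 7.51% of all tested loci in either direction, 3.64% upward and 3.87% downward. The fold change was positive for 4 members, as for 49.6% of all tested loci. All 5 members were tested, meaning at least 1 FPKM in at least 3 libraries, but Cyp2a21-ps met this through the sulfasalazine libraries alone. The groups did not overlap for 3 members, Cyp2a5, Cyp2a4 and Cyp2a21-ps, each higher in sulfasalazine libraries, against 6.71% of all tested loci that were higher in this way and 6.46% that were lower. For Cyp2a21-ps the positive sign and the lack of overlap were fixed by how it passed the minimum. Its place in these counts is therefore not evidence of a difference.

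**Figure D1:**
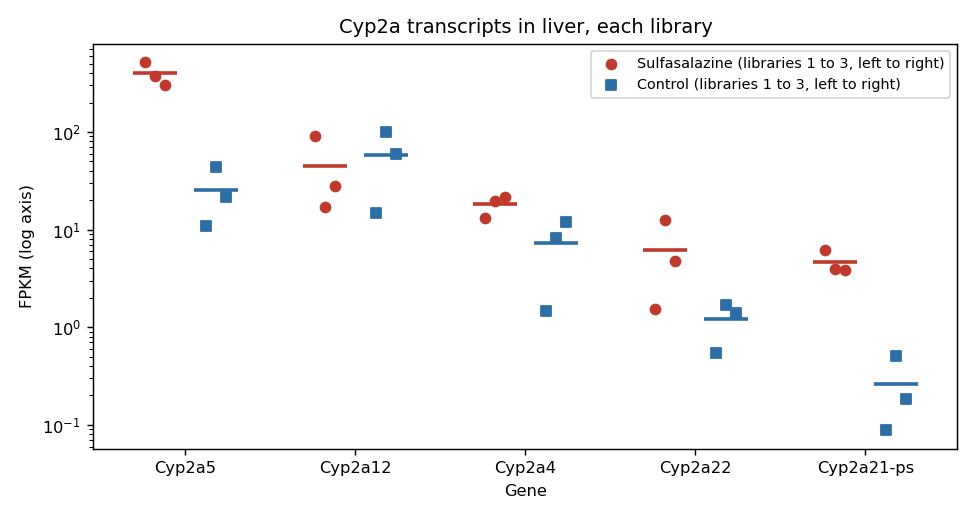
FPKM of each Cyp2a gene in each library on a log axis, sulfasalazine (red circles) to the left of control (blue squares), with bars at the group means. Cyp2a5 lies between 302 and 516 FPKM in sulfasalazine and between 10.9 and 44.0 in control libraries, while Cyp2a12 overlaps between the groups.

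Cyp2a4, the close partner of Cyp2a5 in sequence, had 13.1, 19.8 and 21.7 FPKM in sulfasalazine libraries, against 1.48, 8.19 and 12.1 FPKM in control libraries. The groups did not overlap, but the gap between the lowest sulfasalazine and the highest control library was small. Its log2 fold change was 1.49 (SE 0.62; limma, adjusted p = 0.676). Control library 1 held the lowest value, and without it the log2 fold change was 0.78 (limma, adjusted p = 0.677). In every library Cyp2a5 exceeded Cyp2a4. Cyp2a4 amounted to 2.55%, 5.29% and 7.19% of Cyp2a5 in sulfasalazine libraries, against 13.6%, 18.6% and 56.4% in control libraries. The order of the sulfasalazine libraries by Cyp2a4 was thus the reverse of their order by Cyp2a5. Added together, Cyp2a4 and Cyp2a5 gave 415 ± 104 FPKM in sulfasalazine and 32.7 ± 20.0 FPKM in control libraries (SD, n = 3 each). The log2 ratio of these sums was 3.87 with an SE of 0.65.

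Cyp2a12 had 90.9, 16.8 and 27.8 FPKM in sulfasalazine libraries, against 14.8, 99.3 and 60.0 FPKM in control libraries. The groups overlapped fully, with the lowest value of all in control library 1 and the highest in control library 2. Its log2 fold change was -0.34 (SE 0.87; limma, adjusted p = 0.947). Its sign depended on single libraries, being -1.11 without control library 1 and 0.22 without control library 2, and -1.02 without sulfasalazine library 1 and 0.16 without sulfasalazine library 2. By limma the adjusted p of these fits was 0.838 or above.

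Cyp2a22, the partner of Cyp2a12 in sequence, was at 1.54, 12.4 and 4.77 FPKM in sulfasalazine libraries, against 0.551, 1.69 and 1.41 FPKM in control libraries. Sulfasalazine libraries 2 and 3 exceeded every control, whereas library 1 lay among them. Its log2 fold change was 1.43 (SE 0.60; limma, adjusted p = 0.679), at 0.83 without sulfasalazine library 2 and 2.03 without sulfasalazine library 1 (limma, adjusted p of 0.838 and 0.385). The 3 sulfasalazine libraries stood in opposite order for the members of this pair. Cyp2a22 amounted to 1.69%, 73.9% and 17.2% of Cyp2a12 in sulfasalazine libraries, against 3.73%, 1.70% and 2.35% in control libraries. The sum of the pair was 92.5, 29.3 and 32.5 FPKM in sulfasalazine libraries, against 15.3, 101 and 61.4 FPKM in control libraries, and overlapped between groups.

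Cyp2a21-ps, annotated as an unprocessed pseudogene with 9 exons, had 6.25, 3.93 and 3.89 FPKM in sulfasalazine libraries, against 0.0877, 0.511 and 0.183 FPKM in control libraries. All sulfasalazine libraries exceeded all controls, at a ratio of means of 18.0. Its log2 fold change was 2.16 (SE 0.22; limma, adjusted p = 0.0609), a scale that understates changes from levels this far below 1 FPKM. The call changed with the processing: by limma the adjusted p was 0.0247 without the mean-variance trend, 0.0396 over loci with an Ensembl transcript and 0.036 with FPKM summed per symbol. In these settings 0.192%, 0.0907% and 0.0647% of all tested loci were called higher. In the other settings it lay above the threshold, up to 0.384. The level followed that of Cyp2a5 in each library. It amounted to 1.21%, 1.05% and 1.29% of Cyp2a5 in sulfasalazine libraries, against 0.808%, 1.16% and 0.854% in control libraries. Of the pseudogene's stretches, 10.1% of those of 100 bases and 24.7% of those of 50 were also found in Cyp2a5. Transcription of the pseudogene and misplaced Cyp2a5 reads therefore cannot be told apart in these values. A second row bearing the pseudogene's name but no annotated transcript had 2.98, 3.63 and 2.48 FPKM in sulfasalazine libraries, against 0.608, 0 and 0 in control libraries. It too passed the minimum through the sulfasalazine libraries alone (log2 fold change 1.77, SE 0.24, limma adjusted p = 0.147). The fit with FPKM summed per symbol adds this row to that of Cyp2a21-ps. A second row named Cyp2a5, also without a transcript, reached at most 1.97 FPKM.

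**Figure D2:**
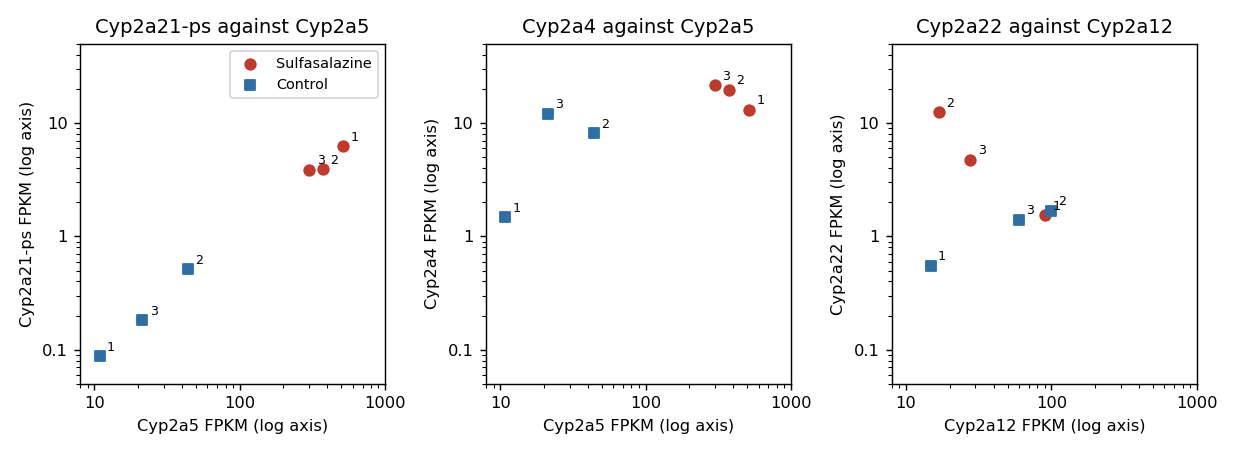
FPKM of Cyp2a21-ps against Cyp2a5 (left), Cyp2a4 against Cyp2a5 (middle) and Cyp2a22 against Cyp2a12 (right), on log axes, with 1 point per library (red circles sulfasalazine, blue squares control, numbered by replicate). The pseudogene lies at 0.808% to 1.29% of Cyp2a5 in all 6 libraries, whereas Cyp2a22 lies between 1.69% and 73.9% of Cyp2a12.

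Summed over the 5 members, the family had 628, 427 and 360 FPKM in sulfasalazine libraries, against 27.8, 154 and 95.1 FPKM in control libraries. The sums did not overlap, and control library 1 had the lowest. The means were 471 ± 139 FPKM in sulfasalazine and 92.2 ± 63.1 FPKM in control libraries (SD, n = 3 each), with a log2 ratio of 2.63 and an SE of 0.77. Without control library 1 the log2 ratio was 1.92. No p is given for this sum, because the members were chosen with earlier results known. Most of the difference in the sum was in Cyp2a5: without it the other 4 members summed to 74.3 ± 32.6 FPKM in sulfasalazine and 66.8 ± 46.8 FPKM in control libraries, and overlapped.

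The make-up of the sum differed between the groups. Cyp2a5 held 82.2%, 87.6% and 83.9% of it in sulfasalazine libraries, against 39.1%, 28.6% and 22.5% in control libraries. Cyp2a12 held 14.5%, 3.95% and 7.71% in sulfasalazine libraries, against 53.2%, 64.6% and 63.1% in control libraries. In sulfasalazine libraries the order of mean levels per length was Cyp2a5, Cyp2a12, Cyp2a4, Cyp2a22 and Cyp2a21-ps. There the ranges of Cyp2a12 and Cyp2a4 overlapped, as did those of Cyp2a22 and Cyp2a21-ps. In control libraries the order was Cyp2a12, Cyp2a5, Cyp2a4, Cyp2a22 and Cyp2a21-ps, and it held within each library. Across control libraries the ranges of neighbours in this order overlapped, except for Cyp2a22 and Cyp2a21-ps.

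**Figure D3:**
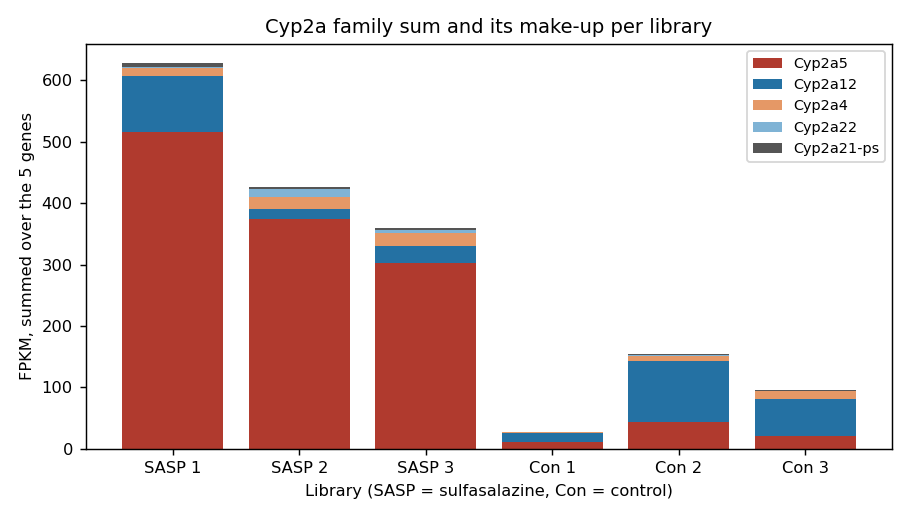
Stacked bars of FPKM for the 5 Cyp2a genes in each library, sulfasalazine (SASP) to the left of control (Con). The bars reach 360 to 628 FPKM in sulfasalazine and 27.8 to 154 FPKM in control libraries, and Cyp2a5 fills 82.2% to 87.6% of the sulfasalazine bars and 22.5% to 39.1% of the control bars.

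The Cyp2a genes are interleaved with other Cyp2 genes on chromosome 7. Of 12 genes listed for this cluster and its flanks 10 were in the table, 6 were tested and 0 passed. Their median log2 fold change was 0.14, beside -0.00206 for all tested loci. Cyp2b10, the usual marker of the nuclear receptor CAR, had 61.6, 58.1 and 68.5 FPKM in sulfasalazine libraries, against 27.2, 9.76 and 19.4 FPKM in control libraries. It was the only tested neighbour without overlap between groups (log2 fold change 1.79, SE 0.35; limma, adjusted p = 0.281). Of all tested loci 6.71% were higher in this way. Cyp2g1, below the minimum for testing and added here after its values were seen, did not overlap either. It had 1.03, 0.614 and 1.22 FPKM in sulfasalazine libraries, against 0.160, 0.589 and 0.295 FPKM in control libraries. Cyp2b9, a female-biased P450, had 5.89, 60.5 and 28.5 FPKM in sulfasalazine libraries, against 2.52, 1.86 and 12.9 FPKM in control libraries. Sulfasalazine library 2 was the highest for Cyp2b9 (limma, adjusted p = 0.697), as it was for Cyp2a22. Cyp2f2, a periportal P450 that lies beyond Cyp2a12, had 869, 440 and 506 FPKM in sulfasalazine libraries, against 540, 668 and 549 FPKM in control libraries, with overlap (limma, adjusted p = 0.996). The receptor tyrosine kinase gene Axl had 4.32 to 6.71 FPKM over 5 libraries and 3.72 in control library 2 (limma, adjusted p = 0.860).

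**Figure D4:**
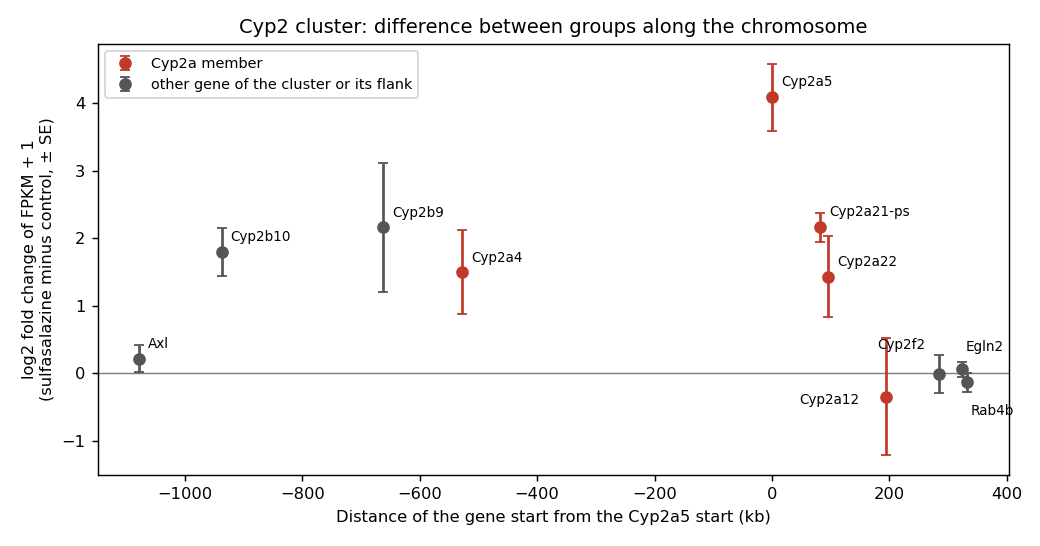
Log2 fold change of FPKM + 1 (sulfasalazine minus control, bars ± SE) for tested Cyp2a members (red) and tested neighbours (grey), by distance of the gene start from that of Cyp2a5 in kb. Cyp2a5 stands at 4.09 and Cyp2a12, 194 kb away, at -0.34.

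The annotated loci outside the Cyp2a family whose profile over the 6 libraries was nearest to that of Cyp2a5 were glutathione transferases and a further P450. Likeness was the root mean square difference of log2(FPKM + 1), centred on each locus's mean, among 9927 tested loci with an Ensembl transcript. With the Cyp2a members left out, Gstm3 was nearest at 0.38, followed by Gsta1 at 0.55, Cyp2c55 at 0.70, Gstm2 at 1.14 and Gsta2 at 1.19. Gstm3 had 195, 168 and 214 FPKM in sulfasalazine libraries, against 8.84, 22.4 and 11.3 FPKM in control libraries (limma, adjusted p = 0.0524). As for Cyp2a5, control library 2 was the highest control. Gsta1 had 26.9, 14.2 and 13.5 FPKM in sulfasalazine libraries, against 0.518, 1.12 and 0.529 FPKM in control libraries (limma, adjusted p = 0.0524). With the members counted in, Cyp2a21-ps ranked 4 by this measure at 1.05, ahead of Gstm2 and Gsta2, Cyp2a4 ranked 19, Cyp2a22 ranked 54 and Cyp2a12 ranked 8860. Cyp2c55 and Cyp2a21-ps met the 1 FPKM minimum through the sulfasalazine libraries alone. For them a profile higher in sulfasalazine libraries was fixed in advance, and their ranks are not evidence of likeness. The 5 nearest loci outside the family do not overlap between the groups, as Cyp2a5 does not, and the measure includes that difference.

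**Figure D5:**
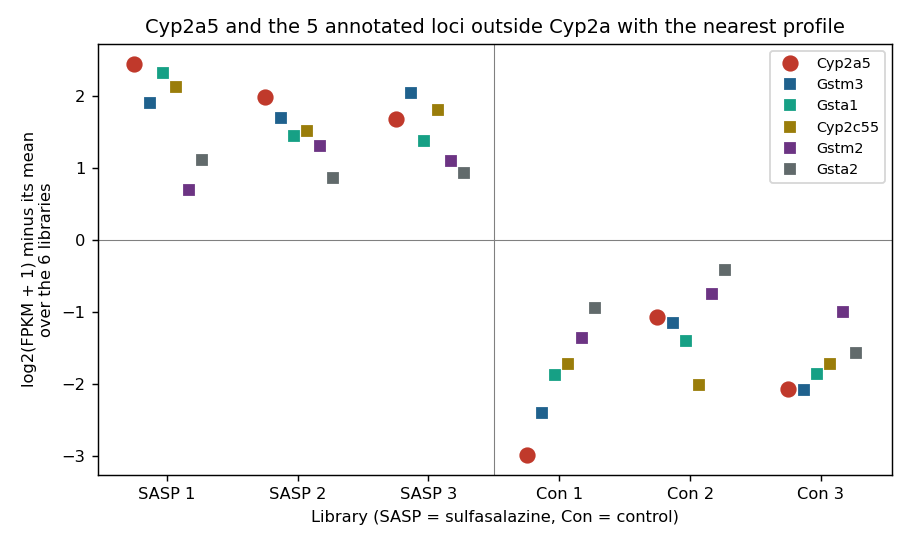
Log2(FPKM + 1) minus its mean over the 6 libraries for Cyp2a5 (large red circles) and the 5 nearest annotated loci outside the Cyp2a family (squares), by library, sulfasalazine (SASP) left of control (Con). For all 6 loci the sulfasalazine libraries lie above 0 and the control libraries below it.

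Cyp2a5 is a target of the xenobiotic receptors CAR and PXR, and other targets of these receptors were listed without the Cyp2a genes. Of 31 loci 29 were tested. Of these 1 rose, 0 fell and 28 did not pass, where 0.0167% of all tested loci passed upward and 0% downward. The median log2 fold change was 1.20, beside -0.00206 for all tested loci, and 15 of the 29 did not overlap between groups, each higher in sulfasalazine livers, against 6.71% of all tested loci. Of these 15, Cyp2c55 and Abcc4 met the 1 FPKM minimum through the sulfasalazine libraries alone, and so could be tested only because they were high there; Abcc4 is named here after its values were seen. Cyp2c55, a P450 that CAR and PXR regulate, rose to 21.3 ± 4.82 FPKM in sulfasalazine libraries, against 0.772 ± 0.198 FPKM in control libraries (SD, n = 3 each; log2 fold change 3.64, SE 0.19; limma, adjusted p = 0.012), higher in 3 of 3 libraries. Its call was lost with the replicate number as a block, with no filter, without sulfasalazine library 3 and without control library 1 (limma, adjusted p of 0.0939 with the block). Cyp2c29, at a locus that also holds Cyp2c53-ps, had 388, 461 and 432 FPKM in sulfasalazine libraries, against 160, 161 and 152 FPKM in control libraries (limma, adjusted p = 0.0524). Aldh1a1, which oxidises retinaldehyde, had 343, 470 and 496 FPKM in sulfasalazine libraries, against 204, 163 and 124 FPKM in control libraries (limma, adjusted p = 0.232). The most abundant gene of the list was Cyp3a11, a P450 that PXR activates, which had 1812, 1087 and 1028 FPKM in sulfasalazine libraries, against 713, 948 and 1237 FPKM in control libraries, with overlap (limma, adjusted p = 0.819). The list was drawn up with earlier results of these libraries known, so its direction is not independent evidence.

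Regulators reported for Cyp2a5 were listed next. Of 21 loci 20 were tested and 0 passed, with 9 positive and 11 negative fold changes and a median of -0.05. Hnf4a, a liver nuclear receptor known to act on the Cyp2a5 promoter, had 93.9, 93.6 and 86.6 FPKM in sulfasalazine libraries, against 75.3, 83.7 and 68.3 FPKM in control libraries, without overlap (limma, adjusted p = 0.730). Nfib, a member of the NF-I family, had 6.15, 4.95 and 4.30 FPKM in sulfasalazine libraries, against 5.97, 9.64 and 8.26 FPKM in control libraries (limma, adjusted p = 0.634). Tef, a clock-controlled PAR bZIP factor, had 2.12, 5.72 and 1.92 FPKM in sulfasalazine libraries, against 0.936, 1.67 and 1.41 FPKM in control libraries (limma, adjusted p = 0.711). Cebpa, a hepatocyte transcription factor, had 62.4, 91.6 and 82.2 FPKM in sulfasalazine libraries and 69.6 FPKM in control library 3, but is listed at 0 in control libraries 1 and 2. The receptors themselves, added here after their values were seen, overlapped between groups. CAR, Nr1i3, had 13.1, 18.3 and 20.1 FPKM in sulfasalazine libraries, against 19.5, 18.1 and 12.2 FPKM in control libraries. PXR, Nr1i2, had 7.63, 14.1 and 10.4 FPKM in sulfasalazine libraries, against 11.1, 10.8 and 11.7 FPKM in control libraries. Dbp, a PAR bZIP factor known to act on Cyp2a5 and also added afterwards, was at 9.11 FPKM in sulfasalazine library 2 and at 0.429 or less in the other 5 libraries. These are transcript levels and do not measure the activity of the factors.

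NRF2 targets, a further route known to reach Cyp2a5, had a median log2 fold change of 0.23 over 13 tested of 14 loci, with 0 passing. This list shares no gene with that of CAR and PXR targets. The glutathione transferases Gstm1, Gstm2, Gstm3 and Gsta2 were placed there, and Gsta1 and Gsta4 here. The medians of both lists depend on this division and do not separate the routes. Gsta1, given above, led this list. Ugdh, at a locus that also holds Smim14, had 11.5, 9.96 and 9.60 FPKM in sulfasalazine libraries, against 5.29, 6.12 and 4.81 FPKM in control libraries, without overlap (limma, adjusted p = 0.191). Gsr, glutathione reductase, had 18.7, 16.5 and 15.8 FPKM in sulfasalazine libraries, against 11.8, 13.6 and 12.1 FPKM in control libraries (limma, adjusted p = 0.513). Gclc, a subunit of glutamate-cysteine ligase, overlapped and was highest in control library 2 at 111 FPKM (limma, adjusted p = 0.884). Me1, malic enzyme, had a log2 fold change of 0.59 without overlap (limma, adjusted p = 0.711). Of the 13 tested loci 9 had positive and 4 had negative fold changes. The groups did not overlap for 4 loci that were higher and 1 that was lower, against 6.71% and 6.46% of all tested loci. The lower locus was Osgin1, added here after its values were seen. It had 4.26, 4.24 and 6.18 FPKM in sulfasalazine libraries, against 6.19, 18.4 and 9.12 FPKM in control libraries (log2 fold change -0.94, limma adjusted p = 0.648). Nqo1, also added afterwards, had 2.17, 3.29 and 3.82 FPKM in sulfasalazine libraries, against 2.30, 0.863 and 0.796 FPKM in control libraries. Its fold change was positive, with overlap between groups (log2 fold change 0.86, limma adjusted p = 0.586).

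Heme and redox partners of P450 enzymes had 0 of 13 tested loci passing and a median of 0.12. Alas1, the rate-limiting enzyme of heme synthesis, had 39.4, 70.5 and 33.4 FPKM in sulfasalazine libraries, against 66.7, 104 and 98.7 FPKM in control libraries. Sulfasalazine libraries 1 and 3 lay below every control and library 2 did not (log2 fold change -0.95, SE 0.33; limma, adjusted p = 0.600). Pgrmc1, a heme-binding partner of P450 enzymes, had 371, 350 and 409 FPKM in sulfasalazine libraries, against 210, 341 and 282 FPKM in control libraries (limma, adjusted p = 0.711). Cytochrome b5, Cyb5a, and its reductase Cyb5r3 overlapped, with log2 fold changes of 0.23 and 0.30 (limma, adjusted p of 0.867 and 0.790). Of 11 tested loci for the metabolism of bilirubin, nicotine and coumarin 0 passed, with a median of 0.13. Blvrb, a biliverdin reductase, had 17.3, 17.0 and 16.3 FPKM in sulfasalazine libraries, against 8.09, 10.7 and 10.9 FPKM in control libraries (limma, adjusted p = 0.276). Ephx1, an epoxide hydrolase, had 309, 217 and 240 FPKM in sulfasalazine libraries, against 113, 160 and 132 FPKM in control libraries (limma, adjusted p = 0.382). Abcc3, an exporter of conjugates, had 117, 143 and 129 FPKM in sulfasalazine libraries, against 76.2, 90.3 and 77.4 FPKM in control libraries (limma, adjusted p = 0.370). Ugt2b1, a glucuronosyltransferase, overlapped (limma, adjusted p = 0.999).

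Bile acid genes were listed for Cyp2a12. Of 10 tested loci 0 passed, and the median was 0.22. Cyp2c70, which makes the muricholic acids of mice, had 107, 69.9 and 130 FPKM in sulfasalazine libraries, against 194, 146 and 189 FPKM in control libraries, without overlap (limma, adjusted p = 0.571). Abcb11, the bile salt export pump, had 128, 112 and 123 FPKM in sulfasalazine libraries, against 101, 80.5 and 93.9 FPKM in control libraries (limma, adjusted p = 0.634). Slc27a5, a bile acid CoA ligase, and Nr1h4, the bile acid receptor FXR, overlapped between groups (limma, adjusted p of 0.996 and 0.780).

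Because Cyp2a4 is known as female-biased, sex-biased liver genes were listed too. In the female-biased list 6 of 14 loci were tested and 0 passed, with a median of 1.05 that was 0.09 without sulfasalazine library 2. That library had the highest Cyp2b9. Added after their values were seen, Cyp3a41a had 65.6 FPKM in it and at most 4.94 elsewhere. Sult3a1, below the minimum for testing, had 29.1 FPKM in it and at most 0.539 elsewhere. It was not the highest library for Fmo2, Cyp17a1 or Cyp3a16. The locus of Cyp2c40 and Cyp2c69 was at 6.34, 37.2 and 16.2 FPKM in sulfasalazine libraries, against 9.20, 5.58 and 26.4 FPKM in control libraries (limma, adjusted p = 0.909). Fmo2 overlapped (limma, adjusted p = 0.827). In the male-biased list 0 of 14 tested loci passed, 13 had negative fold changes and the median was -0.44, or -0.15 without sulfasalazine library 2. Of all tested loci 49.6% had positive fold changes. The groups did not overlap for 3 of the 14, each lower in sulfasalazine libraries, against 6.46% of all tested loci. Elovl3, a fatty acid elongase, had 3.97, 5.71 and 1.72 FPKM in sulfasalazine libraries, against 8.57, 10.2 and 9.55 FPKM in control libraries, without overlap (limma, adjusted p = 0.467). Mup7, a major urinary protein, had 973, 369 and 619 FPKM in sulfasalazine libraries, against 1655, 1721 and 858 FPKM in control libraries (limma, adjusted p = 0.641). Hsd3b5, a steroid dehydrogenase, and the locus of Mup20 and Mup3 overlapped, with log2 fold changes of -0.95 and -0.29 (limma, adjusted p of 0.632 and 0.873). The part of these patterns in the values of Cyp2a4 and Cyp2a22 was not tested.

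Marker levels give the cell context of these values. In bulk liver, fewer cells of a type and less RNA per cell cannot be told apart. Hepatocyte markers, 6 of 7 matched, summed to between 21614 and 23827 FPKM in sulfasalazine and between 21487 and 27649 FPKM in control libraries. Pericentral markers, the zone where Cyp2a5 is known to be expressed, summed to between 1776 and 2633 FPKM in sulfasalazine libraries and between 1992 and 4388 FPKM in control libraries. The highest of these was control library 1, in which Cyp1a2 alone was 2356 FPKM against 195 to 380 FPKM elsewhere and which had the lowest value of all 5 Cyp2a members. Periportal markers summed to between 1825 and 2258 FPKM in sulfasalazine and between 1985 and 2334 FPKM in control libraries. Kupffer and macrophage markers lay between 89.5 and 96.4 FPKM in sulfasalazine libraries and between 50.7 and 230 FPKM in control libraries, with control library 3 the highest. Endothelial markers lay between 31.2 and 36.2 FPKM in sulfasalazine and 30.5 and 35.8 FPKM in control libraries, and stellate markers between 47.1 and 61.3 FPKM in sulfasalazine and 61.1 and 94.7 FPKM in control libraries. Cholangiocyte markers summed to at most 5.87 FPKM. Pancreas and adipose markers, 4 of 5 matched, summed to at most 8.48 FPKM, of which Cela1 was 8.46. Of 4 markers of kidney and nasal tissue, where Cyp2a5 is also known to be expressed, 2 were matched. These, Umod and Omp, summed to at most 0.20 FPKM. The part of these differences in the Cyp2a values was not tested.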

How the data were processed

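The table the authors deposited gives FPKM per locus in 6 libraries, 3 per group, per the file headers. Per the labels' protocols, ribosomal RNA was removed from total RNA of RIN over 7.0. The tools named, without versions, are StringTie, Bowtie2, cutadapt and FastQC, with build GRCm38.p5, per the submitters' processing notes. Depth cannot be read from FPKM, whose library totals ran from 224434 to 260047. An exact 0 can be a failed estimate.

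Loci were matched through Ensembl transcripts to GENCODE M21 (GRCm38), and 24750 of 42612 matched. Testing covered the 11969 loci that reached 1 FPKM in 3 or more libraries. Values were transformed to log2(FPKM + 1) and fitted in limma 3.58.1 (R 4.3.3) using its trend option; p-values were adjusted over all tested loci by Benjamini-Hochberg, threshold 0.05. The procedure was tested on simulated data. Sequences were aligned with Biopython 1.88, and figures drawn with matplotlib 3.10.9. Members, lists and motifs were chosen with earlier results of these data known. Named from each list were loci that passed, the 3 with the smallest p and the 2 most abundant; others are marked as added, and 1 gene that the rule names is not reported here. Alternatives changed the pseudocount, filter, scaling, trend, loci and libraries, or added a replicate block.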

Additional observations from a re-analysis of the deposited data

How the results depend on the processing

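The count of Cyp2a members called, 0, became 1 without the mean-variance trend, over loci with an Ensembl transcript, and with FPKM summed per symbol. In each case the member was Cyp2a21-ps, with log2 fold changes of 2.16, 2.16 and 2.58, the last with its second row added. Both rows met the 1 FPKM minimum through the sulfasalazine libraries alone. Their direction was thus fixed in advance, and these calls are not evidence of a difference. Cyp2a5, Cyp2a4, Cyp2a12 and Cyp2a22 were not called in any setting that tested them. Leaving out 1 library gave log2 fold changes between -1.11 and 0.22 for Cyp2a12, and log2 ratios between 1.92 and 3.16 for the family sum and 3.28 and 4.32 for Cyp2a4 plus Cyp2a5. Over all loci, 2 were called higher; the number was 1 for pseudocounts of 0.1 and 0.01, 0 unfiltered, 1 at a 0.1 FPKM filter, 6 at 5 FPKM, 23 without the trend, 9 over annotated loci and 7 summed per symbol. The 0 called lower became 1 with 5 FPKM, 22 without the trend and 3 over annotated loci. Leaving out 1 library gave 1 to 8 higher and 0 to 6 lower. Of the genes on the lists, 1 was called, against 0 with no filter, 4 with 5 FPKM, 5 without the trend, 4 over annotated loci, 4 summed per symbol and 0 to 2 without 1 library.

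In the fit with a replicate block, 0 loci were called higher, 0 lower, 0 Cyp2a members and 0 list genes, and the log2 ratio of the family sum was 2.63 with an SE of 0.94. Same-numbered libraries did not deviate together (correlations of 0.00967, -0.0668 and -0.0222), and the labels do not say that the number pairs mice. Some uncalled differences changed sign: Cyp2f2 was 0.0998 with quantile normalization and -0.30 to 0.19 without 1 library, Ugt2b1 was -0.00195 with median-of-ratios scaling, -0.024 with quantile normalization and -0.25 to 0.22 without 1 library, and Nr1h4 was -0.0216 summed per symbol. Without 1 library Slc27a5 lay between -0.18 and 0.23 and the Cyp2c40 locus between -0.12 and 1.07. For all of these the cause was not tested. What depth limits cannot be given, because FPKM carries no counts.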
